A study of Homo sapiens with 6 samples.

Results

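Described here are 10 genes known from earlier work as targets of the FOXO transcription factors: SESN3, DEPP1, TXNIP, YPEL3, TRIB1, PIK3IP1, FBXO32, INSR, IRS2 and MXI1. All 10 were found by symbol among the 14884 genes named on the array, and all 10 were bright enough to be among the 10640 genes tested. They were measured in MDA-MB-231, a human triple-negative breast cancer cell line that carries a mutant p53, on 6 Affymetrix Human Gene 2.0 ST arrays. Cells were transfected by lipofection with 1 of 3 small interfering RNAs (siRNAs), and each siRNA has 2 arrays: siNC, the control, siATM, aimed at the DNA damage kinase ATM, and sip53, aimed at p53. All groups share the line, the medium and the transfection reagent, and siRNA sequences, doses and harvest times are not given in the sources used here. Nothing in the labels tells separate cultures from repeat samples of 1 culture, so the p-values cover the spread between these samples alone, and that spread may be technical.

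The 10 genes were selected on earlier log2 differences of these same arrays as well as on what is known of them. Their differences between siATM and siNC are therefore a description, with no test. The same holds for siATM against sip53, which uses the same siATM arrays. Differences between sip53 and siNC are given with the adjusted p of the fit over all genes. They share the siNC arrays with the first comparison and are not independent of it. Which comparison guided the choice of each gene is not known, so sip53 differences may have played a part. Their adjusted p-values are therefore also read as description. The other gene lists below were likewise chosen with earlier results of these arrays known, so their counts and p-values are not independent evidence.

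FOXO factors are forkhead proteins that insulin and growth factors switch off. The receptors activate PI3-kinase and then the kinase AKT, which phosphorylates FOXO proteins so that they leave the nucleus. When the signal is low, FOXO proteins return and raise genes that restrain growth, protect against oxidative stress, break down protein and restore the insulin receptor and its adaptors. In breast cancer cells this arm is known as a brake on proliferation, opposed by the related factor FOXM1.

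FOXO proteins bind a forkhead core that is written GTAAACA, and insulin response elements often hold CAAAACA. Both were searched on both strands in windows from 250 bases before to 50 bases after each RefSeq start site (GRCh38.p14). The motifs end in the same letters but differ in their first bases, so no site matches both. Windows for 8 of the 10 genes were matched, 12 windows in all, and TRIB1 and FBXO32 were not among them. GTAAACA occurred in the windows of 5 of these 8 genes (62.5%), against 1145 of the 27305 genes in the table (4.19%) and 296 of the 8223 tested genes with a window (3.6%). CAAAACA occurred for 1 of the 8 genes, IRS2, against 6.05% of all genes. The genes were listed because FOXO is known to act on them, so the shares describe the list, and a match is not evidence of binding. The 250 bases before the start site are shown for SESN3 and DEPP1, which had the largest siATM differences, for TXNIP, and for IRS2 and MXI1, which behaved differently, on the strand of the gene and with matches in capitals, where a match on the opposite strand reads TGTTTAC or TGTTTTG.
DEPP1, chr10:44978810-44979059, minus strand: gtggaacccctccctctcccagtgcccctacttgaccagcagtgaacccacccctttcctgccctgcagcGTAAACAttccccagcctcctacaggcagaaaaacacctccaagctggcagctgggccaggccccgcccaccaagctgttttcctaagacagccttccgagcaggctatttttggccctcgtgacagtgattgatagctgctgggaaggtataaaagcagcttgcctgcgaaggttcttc
TXNIP, chr1:145996580-145996829, minus strand: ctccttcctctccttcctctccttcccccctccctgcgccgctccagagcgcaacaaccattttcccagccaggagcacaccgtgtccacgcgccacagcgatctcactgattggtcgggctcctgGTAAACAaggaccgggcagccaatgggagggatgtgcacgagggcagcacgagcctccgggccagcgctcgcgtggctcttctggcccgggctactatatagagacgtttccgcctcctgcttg
MXI1, second of 3 start sites, chr10:110209981-110210230, plus strand: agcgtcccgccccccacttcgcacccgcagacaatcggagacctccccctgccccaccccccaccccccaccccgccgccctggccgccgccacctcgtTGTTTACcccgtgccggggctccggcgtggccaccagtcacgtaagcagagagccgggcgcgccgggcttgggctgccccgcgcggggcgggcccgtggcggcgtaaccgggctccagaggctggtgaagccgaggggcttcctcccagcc
IRS2, chr13:109786584-109786833, minus strand: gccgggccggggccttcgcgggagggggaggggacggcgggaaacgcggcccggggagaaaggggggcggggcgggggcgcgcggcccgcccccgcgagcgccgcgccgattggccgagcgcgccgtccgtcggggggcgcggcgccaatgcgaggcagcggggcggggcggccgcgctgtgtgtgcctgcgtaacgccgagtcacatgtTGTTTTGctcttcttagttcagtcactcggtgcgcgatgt
SESN3, chr11:95232476-95232725, minus strand: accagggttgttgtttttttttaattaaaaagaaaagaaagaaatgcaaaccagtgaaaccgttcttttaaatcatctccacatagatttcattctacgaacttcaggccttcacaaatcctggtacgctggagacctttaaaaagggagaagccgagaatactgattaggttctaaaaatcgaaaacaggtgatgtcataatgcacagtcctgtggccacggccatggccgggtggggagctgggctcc
The match began 180 bases before the start site in DEPP1, 124 bases before it in TXNIP and, on the opposite strand, 151 bases before it in MXI1. In YPEL3 it began at the first transcribed base, in PIK3IP1 it began 16 bases after 1 of 2 start sites on the opposite strand, and MXI1 had another match across the start site of its last window. The IRS2 match to CAAAACA, on the opposite strand, began 40 bases before the start site. Neither motif was found in the windows of SESN3 and INSR, which says only that these letters are not in those windows.

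Of the 10 genes, 8 were highest on the siATM arrays, IRS2 was highest with sip53, and MXI1 was lowest with siATM. Between siATM and siNC the 2 arrays of one group lay wholly above those of the other for every gene, 9 of them higher with siATM and MXI1 lower (non-overlap in these directions was seen for 31.9% and 30.8% of all tested genes). The sip53 arrays lay below siNC for SESN3, DEPP1, TRIB1 and FBXO32, above siNC for TXNIP, YPEL3 and IRS2, and overlapped siNC for PIK3IP1, INSR and MXI1 (over all tested genes, 33.1% did not overlap and were higher, and 25.8% were lower, so these counts of 3 and 4 are near the shares over all genes). In these bulk samples, a change in the share of cells that express a gene and a change in its level per cell cannot be told apart.

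**Figure D1:**
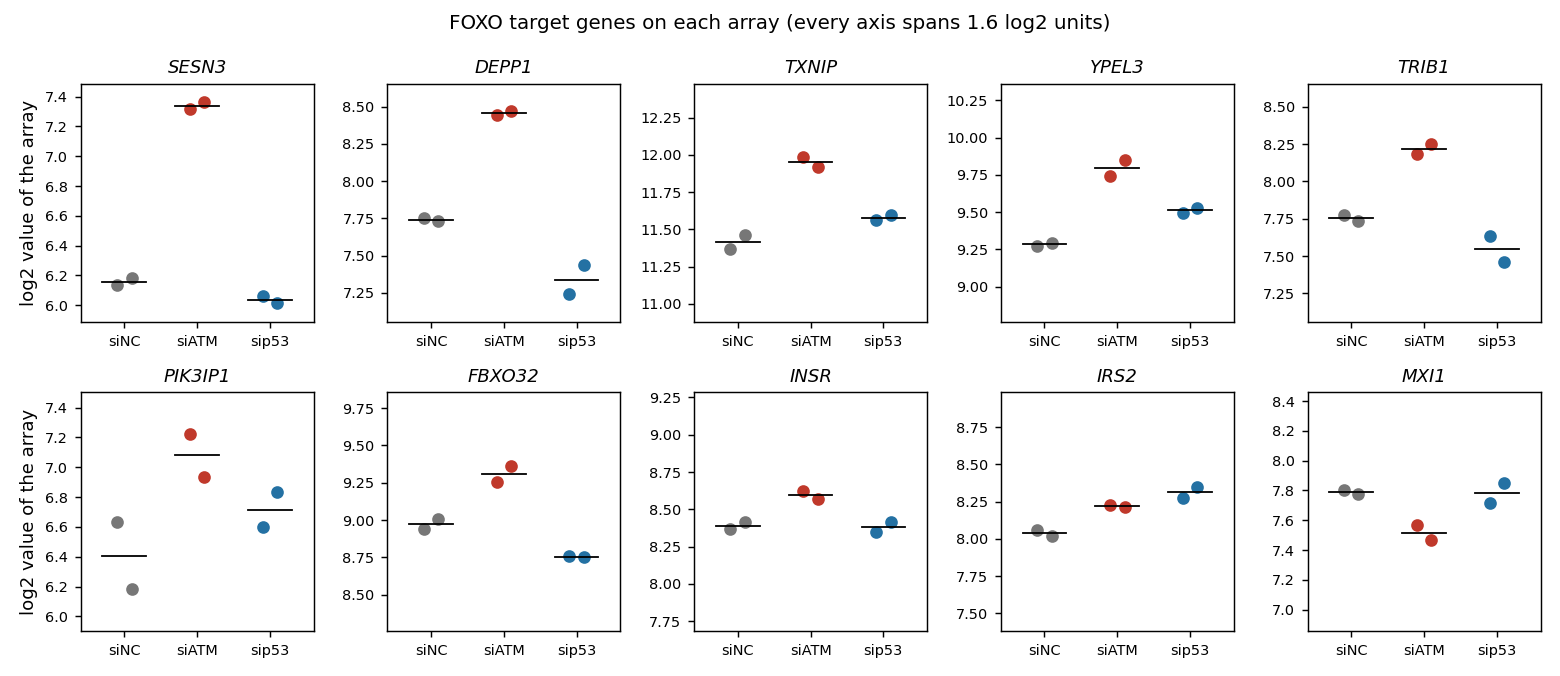
Log2 values of the 10 FOXO target genes on each of the 6 arrays, with siNC in grey, siATM in red and sip53 in blue; dots are arrays and lines are means of 2 arrays, and every vertical axis spans 1.6 log2 units. The siATM arrays are the highest for 8 genes, while sip53 lies below siNC for SESN3, DEPP1, TRIB1 and FBXO32 and above it for TXNIP, YPEL3 and IRS2.

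The genes of stress and nutrient control are given first. SESN3 encodes a sestrin, a stress protein that restrains the growth kinase complex mTORC1. On the log2 scale SESN3 measured 6.14 and 6.18 with siNC, 7.32 and 7.36 with siATM, and 6.06 and 6.01 with sip53. The siATM arrays stood far above the other 4, at 2.27-fold the siNC level (log2 difference 1.18, SE 0.06). Both sip53 arrays were slightly below siNC, by a log2 difference of −0.12 (SE 0.06, limma adjusted p = 0.235), which did not pass the test.

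DEPP1 encodes a small protein linked to autophagy and oxidative stress. DEPP1 had log2 values of 7.75 and 7.73 with siNC, 8.44 and 8.47 with siATM, and 7.24 and 7.44 with sip53. The 3 groups did not overlap, and siATM and sip53 lay on opposite sides of control. It was 1.64-fold higher with siATM than with siNC (log2 difference 0.71, SE 0.07) and fell after sip53, by 1.32-fold (log2 difference −0.40, SE 0.07, limma adjusted p = 0.0176). The sip53 call was lost without siNC replicate 1, siNC replicate 2 or sip53 replicate 1 (limma adjusted p up to 0.0989). The difference was −0.30 without sip53 replicate 1 and −0.50 without sip53 replicate 2. Another DEPP1 probe set, less bright, gave the same order, with log2 means of 7.47, 8.05 and 7.28 for siNC, siATM and sip53.

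TXNIP encodes an alpha-arrestin that binds thioredoxin and limits glucose uptake. The log2 values of TXNIP were 11.37 and 11.46 with siNC, 11.99 and 11.92 with siATM, and 11.56 and 11.60 with sip53. The groups did not overlap and sip53 lay between the others. The difference from siNC was 0.54 (SE 0.06, 1.45-fold) for siATM and 0.16 (SE 0.06, limma adjusted p = 0.146) for sip53. Its dimmer probe set gave log2 differences of 0.75 and 0.16.

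The next genes are those of insulin and PI3-kinase signalling, with TRIB1 placed beside them. PIK3IP1 encodes a membrane protein that inhibits PI3-kinase. Log2 values of PIK3IP1 were 6.63 and 6.18 with siNC, 7.22 and 6.94 with siATM, and 6.60 and 6.83 with sip53. It had the widest spread of the 10 genes, with an SD of 0.32 between the siNC arrays (n = 2). Both siATM arrays were above all others, by 0.67 over siNC (SE 0.16, 1.59-fold). This difference was 0.45 without siNC replicate 2 and 0.90 without siNC replicate 1. The sip53 difference of 0.31 (SE 0.16, limma adjusted p = 0.273) had a 95% interval from −0.07 to 0.69, and it was 0.09 without siNC replicate 2 and 0.53 without siNC replicate 1.

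TRIB1 encodes a pseudokinase that brings substrates to the ubiquitin ligase COP1. The arrays gave TRIB1 log2 values of 7.77 and 7.74 with siNC, 8.19 and 8.25 with siATM, and 7.64 and 7.46 with sip53. Like DEPP1, it stood higher with siATM (0.47, SE 0.07, 1.38-fold) while both sip53 arrays lay below siNC (−0.21, SE 0.07, limma adjusted p = 0.125), the latter without passing the test. The sip53 difference was −0.12 without sip53 replicate 2 and −0.30 without sip53 replicate 1.

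INSR, the insulin receptor, and IRS2, the adaptor that links it to PI3-kinase, showed small differences. INSR had log2 values of 8.37 and 8.41 with siNC, 8.62 and 8.57 with siATM, and 8.35 and 8.41 with sip53. The siATM arrays were the highest, by 0.20 over siNC (SE 0.06, 1.15-fold), and sip53 overlapped siNC with a difference of −0.01 (95% interval −0.15 to 0.13, limma adjusted p = 0.934). IRS2 had log2 values of 8.06 and 8.02 with siNC, 8.23 and 8.21 with siATM, and 8.27 and 8.35 with sip53. It was the only one of the 10 genes that was highest with sip53, where it rose 1.21-fold (log2 difference 0.27, SE 0.06, limma adjusted p = 0.0298), and it was 0.18 above siNC with siATM (SE 0.06). The sip53 call of IRS2 was lost whichever siNC or sip53 array was left out (limma adjusted p up to 0.183).

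The last group restrains growth or breaks down protein. YPEL3 encodes a growth-suppressing protein of the yippee-like family. YPEL3 was measured at log2 values of 9.28 and 9.30 with siNC, 9.74 and 9.85 with siATM, and 9.49 and 9.53 with sip53. As with TXNIP, the groups did not overlap and sip53 lay between the others, with differences from siNC of 0.51 (SE 0.06, 1.42-fold) for siATM and 0.23 (SE 0.06, limma adjusted p = 0.0606) for sip53.

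FBXO32 encodes atrogin-1, the ubiquitin ligase subunit known from muscle wasting. For FBXO32 the log2 values were 8.94 and 9.00 with siNC, 9.26 and 9.36 with siATM, and 8.76 and 8.75 with sip53. The siATM arrays were the highest and the sip53 arrays the lowest, with differences from siNC of 0.33 (SE 0.06, 1.26-fold) and −0.22 (SE 0.06, limma adjusted p = 0.0687).

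MXI1 encodes a repressor that competes with MYC for its partner MAX, and it went against the rest. Its log2 values were 7.80 and 7.78 with siNC, 7.57 and 7.47 with siATM, and 7.71 and 7.85 with sip53. Both siATM arrays were below the other 4, by −0.27 from siNC (SE 0.07), and the sip53 difference was −0.01 (95% interval −0.17 to 0.15, limma adjusted p = 0.954). A dimmer probe set, annotated to another MXI1 transcript, overlapped between all groups, with log2 means of 6.68, 6.72 and 6.62 for siNC, siATM and sip53. With the mean of both probe sets the siATM difference was −0.12, so the lower value rests on 1 of them.

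Counted by the fit over all genes (limma, Benjamini-Hochberg adjusted p below 0.05), 8 of the 10 genes were higher and 1 lower with siATM than with siNC, where 12.5% of all tested genes were higher and 13% lower (25.5% in all). The median log2 difference of the 10 genes was 0.49, and that of all tested genes was −0.00062. The choice of the genes fixed this outcome, so the counts are given for completeness and nothing is read from them. Of these calls, INSR was not called whichever of the 6 arrays was left out, FBXO32 not without siNC replicate 1, PIK3IP1 not without siNC replicate 2 or siATM replicate 1, and MXI1 not without either siNC array or siATM replicate 2. With no filter on dim genes INSR, MXI1 and PIK3IP1 were not called either.

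Between sip53 and siNC, 1 of the 10 genes was higher (IRS2, against 5.47% of all tested genes) and 1 lower (DEPP1, against 5.11%). The median of the 10 genes was −0.01 and that of all tested genes 0.01, with 4 of the 10 positive and 6 negative. Leaving out 1 array gave between 0 and 3 calls, with 0 calls without siNC replicate 1, siNC replicate 2 or sip53 replicate 1 and 1 call without sip53 replicate 2. At an unadjusted limma p below 0.05, 3 genes were higher and 3 lower, and in the 3 fits with 0 calls that number was 4 or 5 in all. The number of limma calls was 0 with no filter on dim genes, where 6 passed unadjusted. It was 4 with the filter at the 70th percentile of brightness, where SESN3 and PIK3IP1 were too dim to be tested. It was 5 where eBayes used a variance trend and was made robust. Centring each array on its median moved all sip53 differences by −0.03, and the calls over all genes then split into 410 higher and 668 lower in place of 582 and 544.

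The direct difference between siATM and sip53 was largest for SESN3 (1.30, SE 0.06, 2.47-fold higher with siATM), DEPP1 (1.12, SE 0.07, 2.17-fold), TRIB1 (0.67, SE 0.07, 1.6-fold) and FBXO32 (0.55, SE 0.06, 1.47-fold). For all 4 this exceeds the siATM difference from control, since their sip53 arrays lay on the other side of siNC. It was smaller for TXNIP (0.37, SE 0.06), YPEL3 (0.28, SE 0.06) and INSR (0.21, SE 0.06). The difference was 0.36 for PIK3IP1 (SE 0.16) and −0.09 for IRS2 (SE 0.06), and MXI1 was lower with siATM (−0.26, SE 0.07). Nothing is read here either from the count past the limma threshold, 7 of the 10 genes higher and 1 lower, beside 14% and 16.3% of all tested genes (30.3% in all). The siATM arrays lay wholly above the sip53 arrays for 8 of the 10 genes and below them for IRS2 and MXI1, as for 31% and 34.4% of all tested genes. The count was 5 in all without sip53 replicate 2. For PIK3IP1 the difference of 0.36 was 0.22 without siATM replicate 1.

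**Figure D2:**
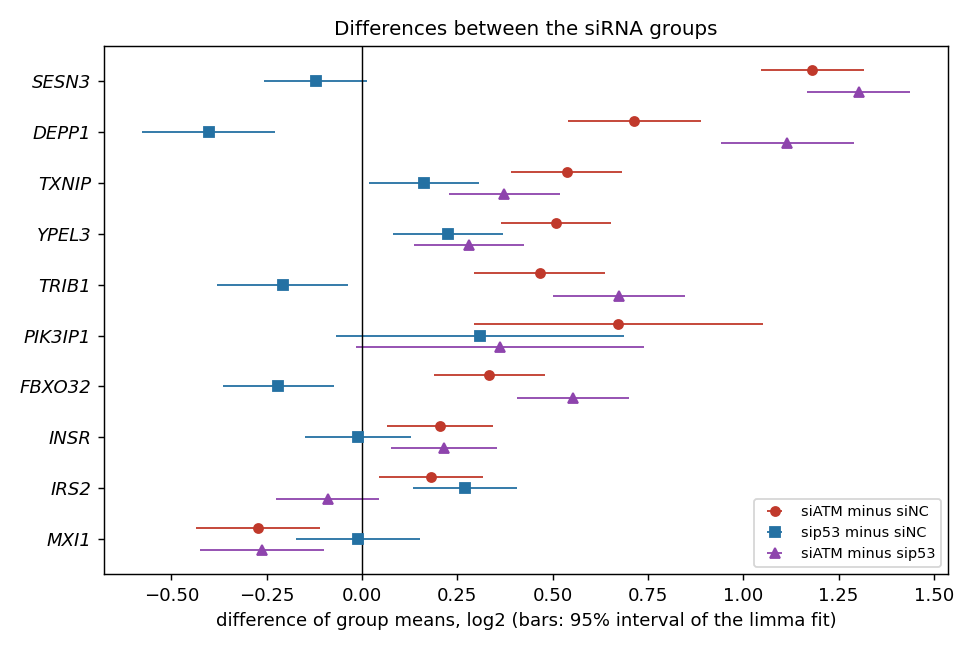
Differences of group means on the log2 scale for the 10 genes, with red circles for siATM minus siNC, blue squares for sip53 minus siNC and purple triangles for siATM minus sip53; bars are 95% intervals of the limma fit over all 6 arrays. SESN3 and DEPP1 have the largest siATM differences (1.18 and 0.71), and for SESN3, DEPP1, TRIB1 and FBXO32 the sip53 squares lie on the other side of zero.

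The transcripts of the FOXO factors themselves were then compared. FOXO1 had log2 values of 7.53 and 7.79 with siNC, 7.98 and 8.02 with siATM, and 7.72 and 7.81 with sip53. FOXO3 had 6.96 and 6.91, 7.16 and 7.19, and 6.93 and 7.03 in the same order. Both rose after siATM, FOXO1 by 0.34 (SE 0.09, limma adjusted p = 0.0338) and FOXO3 by 0.24 (SE 0.06, limma adjusted p = 0.0279), with the siATM arrays above all others. FOXO4, with values of 8.10 and 8.13, 7.92 and 7.78, and 8.21 and 8.27, fell by 0.27 after siATM (SE 0.07, limma adjusted p = 0.0266) and was also lower with siATM than with sip53 (−0.39, SE 0.07, limma adjusted p = 0.00505). After sip53 none of these 3 passed, with differences of 0.10, 0.04 and 0.12. The FOXO1 difference was 0.20 without siNC replicate 1 and 0.47 without siNC replicate 2. With 1 array left out, FOXO1 kept its call only without siNC replicate 2, FOXO3 only without 1 of the sip53 arrays, and FOXO4 without siATM replicate 1 or either sip53 array, with limma adjusted p up to 0.149, 0.134 and 0.118 otherwise, while the lower FOXO4 level against sip53 was called in all 6 fits. FOXO3 was also higher with siATM than with sip53 (0.20, SE 0.06, limma adjusted p = 0.0478), a call lost in each of these 6 fits (up to 0.252). Neither FOXO3 call held with the mean of its probe sets or with a variance trend.

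Of 24 FOXO factors and regulators listed, 13 were named and 12 tested, with 3 higher and 1 lower after siATM and, by limma, 0 higher and 1 lower after sip53 (0 and 2 at an unadjusted p below 0.05). Over all tested genes 12.5% were higher and 13% lower after siATM, and 5.47% and 5.11% after sip53. EP300, an acetyltransferase that acts on FOXO proteins, also rose after siATM (0.20, SE 0.06, limma adjusted p = 0.0485). It lost this call with quantile-normalized or centred arrays and without any 1 array except siATM replicate 2, and the count for siATM ran from 0 to 2 in such fits, with 0 limma calls without siNC replicate 1 (3 at an unadjusted p below 0.05). SIRT1, the deacetylase of FOXO proteins, fell after sip53 (−0.24, SE 0.06, limma adjusted p = 0.0427), a call that was lost whichever siNC or sip53 array was left out (limma adjusted p up to 0.199). STK4, a kinase that drives FOXO into the nucleus, differed between the siRNAs, higher with siATM than with sip53 by 0.34 (SE 0.06, limma adjusted p = 0.00682), and lost this call without sip53 replicate 2 (limma adjusted p = 0.0544). AKT1 and AKT2 did not pass in any comparison.

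Upstream, 16 of 34 listed genes of insulin and PI3-kinase signalling were tested, with 2 higher and 2 lower after siATM (median −0.06) and 2 higher and 1 lower after sip53 (median 0.07). The siATM count is near the share of all tested genes called in either direction (25.5%), and the share for sip53 was 10.6%. IGF1R, the receptor of insulin-like growth factors, rose after both siRNAs. Its log2 values were 8.02 and 8.16 with siNC, 8.54 and 8.67 with siATM, and 8.44 and 8.45 with sip53, a rise of 1.43-fold after siATM (limma adjusted p = 0.0031) and 1.28-fold after sip53 (limma adjusted p = 0.027). MTOR, the growth kinase that sestrins restrain, fell after siATM from 9.71 and 9.74 to 9.39 and 9.39 (−0.34, SE 0.06, limma adjusted p = 0.0056), and its activator RHEB fell with it (−0.23, SE 0.06, limma adjusted p = 0.035). TSC2, which switches RHEB off, rose (0.23, SE 0.06, limma adjusted p = 0.0232). EIF4EBP1, a target of mTORC1, was lower with siATM than with sip53 (−0.34, SE 0.08, limma adjusted p = 0.016). After sip53, PHLPP2, a phosphatase that inactivates AKT, fell from 9.00 and 8.93 to 8.32 and 8.32 (−0.65, SE 0.06, limma adjusted p = 0.00192), and IRS1, the sister adaptor of IRS2, rose (0.28, SE 0.06, limma adjusted p = 0.0308). IGF1R and MTOR after siATM and PHLPP2 after sip53 kept their calls whichever array was left out. After siATM, RHEB lost its call without any 1 array except siATM replicate 1 (limma adjusted p up to 0.137), and TSC2 without either siNC array or siATM replicate 2 (up to 0.112). After sip53, IGF1R and IRS1 were no longer called whichever siNC or sip53 array was left out (up to 0.146 and 0.183), which left 1 call, and EIF4EBP1 between the siRNAs lost its call without siATM replicate 2 or sip53 replicate 2 (up to 0.102).

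A wider list of 46 genes known as FOXO targets, without the 10 above, had 28 named and 27 tested. After siATM 5 were higher and 2 lower (beside 12.5% and 13% of all tested genes), and the median was 0.03. These 7 calls among 27 genes are near the share of all tested genes called in either direction (25.5%). KLF2, a transcription factor that FOXO1 controls in lymphocytes, had log2 values of 8.24 and 8.22 with siNC, 8.76 and 8.75 with siATM, and 8.23 and 8.24 with sip53. It rose 1.44-fold after siATM (limma adjusted p = 0.00102) and was as much higher than with sip53 (0.52, SE 0.05, limma adjusted p = 0.000701). BBC3, the cell death gene PUMA, rose 1.38-fold after siATM (limma adjusted p = 0.00656). CCND1, cyclin D1, which FOXO factors repress, fell after siATM from 11.44 and 11.40 to 11.04 and 11.12 (−0.34, SE 0.06, limma adjusted p = 0.00721) and stood 1.47-fold lower than with sip53 (limma adjusted p = 0.000875). IGFBP1, a classical FOXO1-induced gene in liver, fell after both siRNAs, by 0.48 after siATM (SE 0.06, limma adjusted p = 0.00149) and by 0.62 after sip53 (SE 0.06, limma adjusted p = 0.00192).

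After sip53 the wider list had 2 higher, 2 lower and a median of 0.05, beside 5.47% and 5.11% of all tested genes. SESN1, a sestrin that is also a p53 target, had log2 values of 6.81 and 6.60 with siNC, 6.84 and 6.73 with siATM, and 7.10 and 7.15 with sip53. It rose after sip53 (0.42, SE 0.08, limma adjusted p = 0.0227), whereas SESN3 was lowest there, and SESN2, another sestrin, was lower with sip53 than with siATM by 0.39 (SE 0.07, limma adjusted p = 0.00476). BCL2L11, the cell death gene BIM, rose after sip53 (0.32, SE 0.06, limma adjusted p = 0.0162) and the autophagy gene ATG12 fell (−0.27, SE 0.06, limma adjusted p = 0.0336). ERBB3, a growth factor receptor, was lower with siATM than with sip53 (−0.35, SE 0.06, limma adjusted p = 0.00532). Of the genes named from this list, CCND1 lost its siATM call without siNC replicate 1 (limma adjusted p = 0.0503), and the siATM count was then 4 in place of 7. After sip53, BCL2L11 and ATG12 were no longer called whichever siNC or sip53 array was left out (up to 0.117 and 0.195) and SESN1 lost its call when siNC replicate 2 or a sip53 array was absent (up to 0.13), which left 1 or 2 of 4 calls. KLF2, BBC3 and IGFBP1 kept their calls against siNC in all 6 fits.

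**Figure D3:**
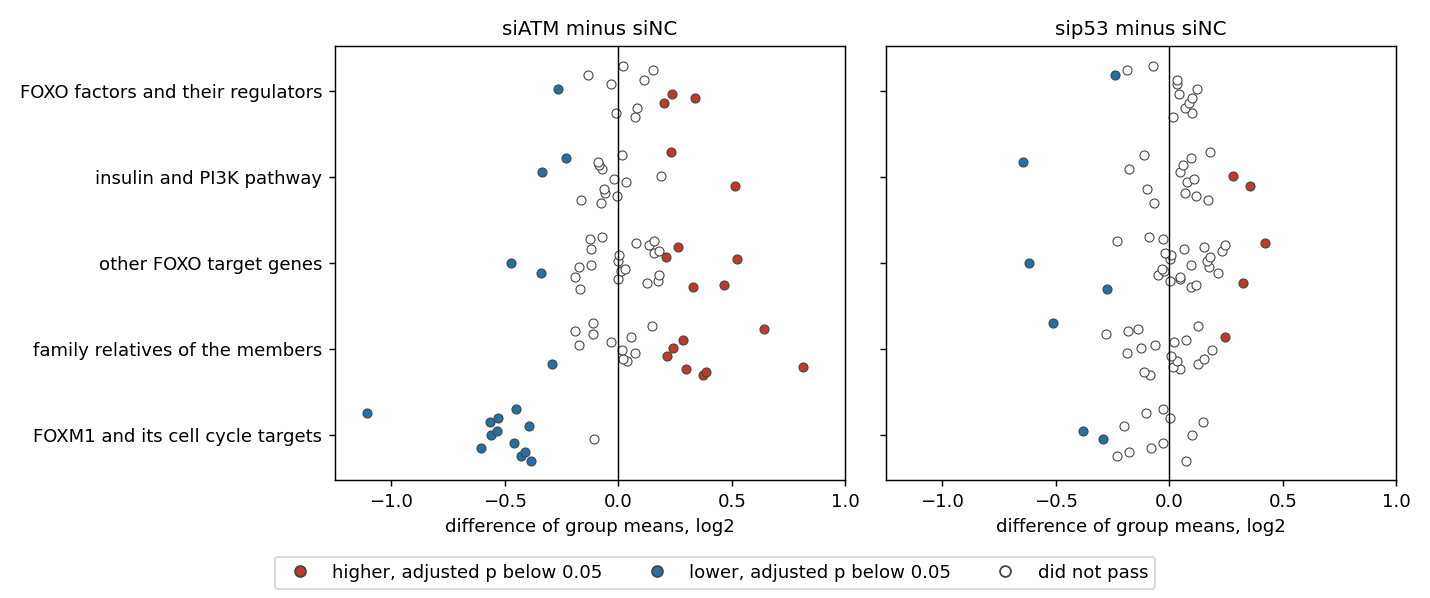
Differences of group means from siNC on the log2 scale for siATM (left) and sip53 (right), each dot 1 tested gene of 5 gene lists; red and blue dots are higher and lower at a limma adjusted p below 0.05, and open dots did not pass. The FOXM1 list lies left of zero after siATM, with 12 of 13 genes lower, while the wider FOXO target list is spread on both sides of zero.

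Relatives of the 10 genes were compared family by family, 20 of 22 tested. They too were listed with earlier results of these arrays known, so their counts are a description. After siATM 8 were higher and 1 lower (median 0.06), beside 12.5% and 13% of all tested genes. After sip53 1 was higher and 1 lower, beside 5.47% and 5.11%. The 1 lower after siATM was FBXO25 (−0.29, SE 0.07, limma adjusted p = 0.0186), a relative of FBXO32, which was higher with siATM. MLX, MNT and MXD4 were also called higher after siATM, whereas the member MXI1 was lower with siATM. Like FBXO25 they are outside the naming rule. All 4 tested relatives of TXNIP, the alpha-arrestin genes ARRDC1 to ARRDC4, rose after siATM, under each of the scalings tried. ARRDC4, which like TXNIP is controlled by the glucose-sensing factor MondoA, had log2 values of 7.63 and 7.75 with siNC, 8.51 and 8.50 with siATM, and 7.67 and 7.75 with sip53. It rose 1.75-fold (limma adjusted p = 0.000484), ARRDC2 rose 1.31-fold (limma adjusted p = 0.0191), ARRDC1 1.3-fold (limma adjusted p = 0.00592) and ARRDC3, outside the naming rule and added after its values were seen, 1.23-fold (limma adjusted p = 0.0118). After sip53 none of the 4 passed, with differences from −0.11 to 0.05, and each was higher with siATM than with sip53 (limma adjusted p from 0.000384 to 0.0192).

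YPEL2, a relative of YPEL3, had log2 values of 7.23 and 7.26 with siNC, 7.99 and 7.78 with siATM, and 7.22 and 7.01 with sip53. It rose 1.56-fold after siATM (limma adjusted p = 0.00352), whereas YPEL5 fell after sip53 (−0.51, SE 0.07, limma adjusted p = 0.00612) and had a difference of −0.11 after siATM (SE 0.07). TRIB2, a relative of TRIB1, rose after sip53 (0.25, SE 0.05, limma adjusted p = 0.0329), where TRIB1 had a difference of −0.21. Of these calls against siNC, ARRDC1, ARRDC4, YPEL2 and YPEL5 remained in all 6 fits with 1 array left out. ARRDC2 lost its call without siNC replicate 1 or siATM replicate 2 (limma adjusted p up to 0.108), ARRDC3 without siNC replicate 2 (0.0709), and TRIB2 whichever siNC or sip53 array was left out (up to 0.176), with centred arrays and with the mean of its probe sets. Against sip53, ARRDC3 lost its call without siATM replicate 1 or a sip53 array (limma adjusted p up to 0.107). The siATM count of 9 was 4 without siATM replicate 2 or siNC replicate 2 and 5 without siNC replicate 1, and the sip53 count of 2 was 1 whichever siNC or sip53 array was left out.

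**Figure D4:**
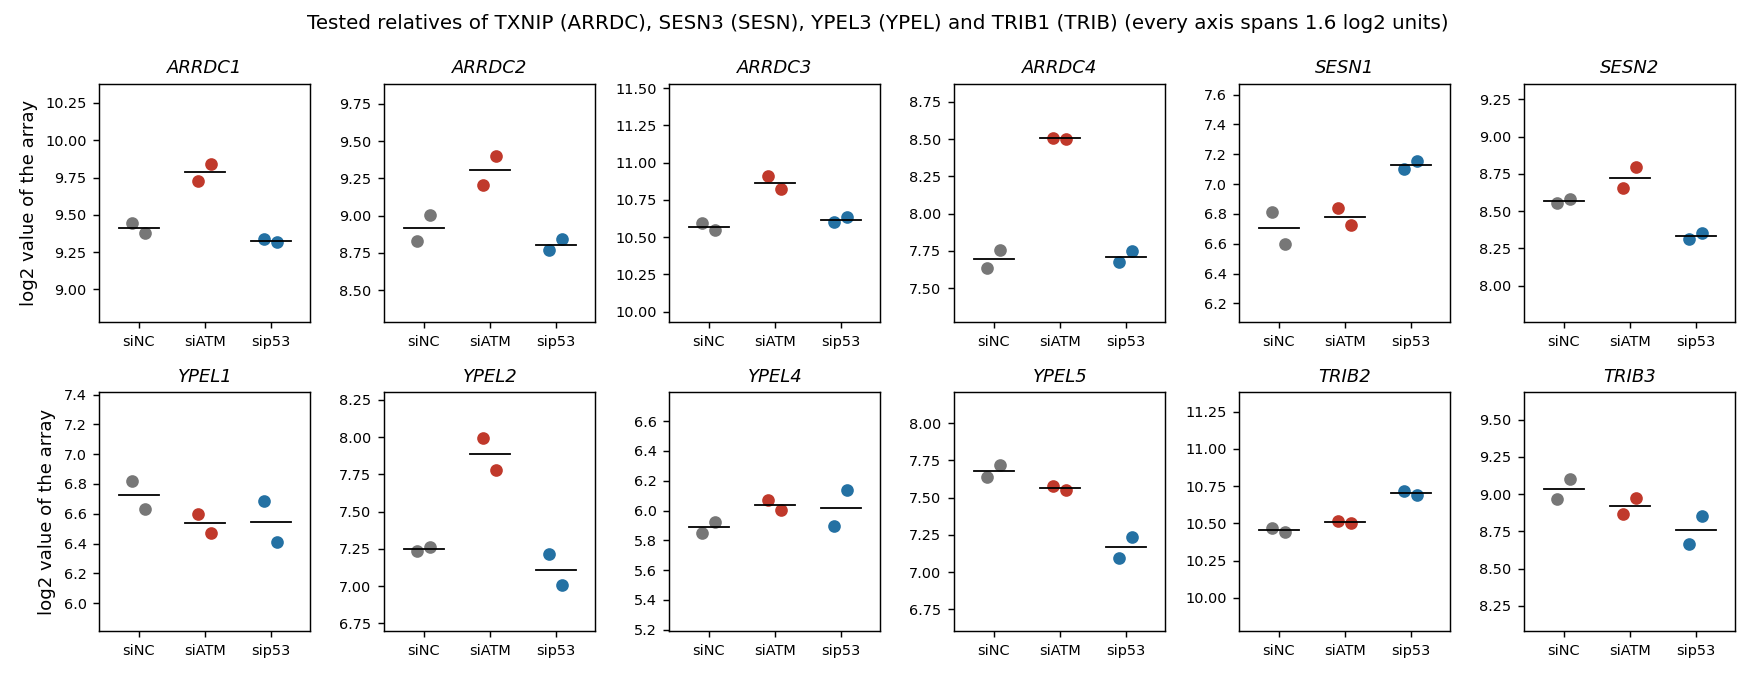
Log2 values on each of the 6 arrays for the tested relatives of TXNIP (ARRDC genes), SESN3 (SESN), YPEL3 (YPEL) and TRIB1 (TRIB), drawn as in the plot of the 10 genes, with every axis spanning 1.6 log2 units. The siATM arrays are the highest for ARRDC1 to ARRDC4, SESN2 and YPEL2, and the sip53 arrays for SESN1 and TRIB2.

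FOXM1 and its cell cycle targets, which FOXO factors are known to oppose, moved with the same siATM arrays. This list was also chosen with earlier results of these arrays known, so its counts describe the list. Of 15 listed genes 13 were tested, and by limma 12 were lower and 0 higher after siATM, also at an unadjusted p below 0.05 (median −0.46), beside 13% of all tested genes lower. FOXM1 had log2 values of 10.49 and 10.47 with siNC, 9.92 and 9.91 with siATM, and 10.59 and 10.67 with sip53, a fall of 1.48-fold after siATM (limma adjusted p = 0.00099). NEK2, a centrosome kinase, fell 2.15-fold (limma adjusted p = 0.000122), CCNB2, a cyclin of mitosis, fell by 0.60 and its kinase CDK1 by 0.56. After sip53 2 of the 13 were lower, CENPA (−0.38) and CDC25B (−0.29), beside 5.11% of all tested genes. Both calls were lost when any 1 of the siNC and sip53 arrays was left out. Of the sip53 differences of the 13 genes, 9 were negative and 4 positive. At an unadjusted limma p below 0.05, 5 were lower and 1 higher. KIF20A, a kinesin of cell division, was lower with siATM than with sip53 (−0.53). The part of these changes in the levels of the 10 FOXO targets was not tested. With no filter on dim genes, the sip53 calls of PHLPP2, IGFBP1, YPEL5 and CENPA remained among the genes covered by the naming rule. In that setting the siATM calls of FOXO1, FOXO3, FOXO4, EP300, RHEB, TSC2 and ARRDC2 were lost. In fits of the 2 groups compared, the siATM calls of INSR, FOXO1, EP300 and RHEB were lost among these genes.

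The genes most like the members were sought by the Euclidean distance between gene-centred log2 profiles over the 6 arrays, as a description. For the 4 members with the widest range of group means, the nearest genes were LRRC15, CPA4 and SELPLG for SESN3 (distances 0.16, 0.20 and 0.22), CD22, CLDN7 and HSD17B3 for DEPP1 (0.14, 0.17 and 0.21), TBX19, AMT and POFUT2 for TRIB1 (0.08, 0.12 and 0.13), and FMO4, DKFZP586I1420 and ROMO1 for PIK3IP1 (0.19, 0.26 and 0.26). The genes nearest to DEPP1 were, like it, higher after siATM and lower after sip53. Their differences from siNC were 0.68 and −0.47 for CD22, 0.59 and −0.53 for CLDN7, and 0.87 and −0.31 for HSD17B3. None of the 10 members was among the 3 nearest genes of another. FMO4, DKFZP586I1420 and ROMO1 shared with PIK3IP1 a lower value in siNC replicate 2 than in siNC replicate 1. All nearest genes were chosen for closeness on these same 6 arrays, so such shared features follow from the choice.

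Medians of the 6 arrays ran from 5.95 to 5.98 on the log2 scale. Transcripts of the targeted genes are not analysed here. Of 10 markers of mesenchymal breast cancer cells, 5 were named and all 5 were above the brightness limit of 5.96. Their siATM differences from siNC ran from −0.25 to 0.06, with FOSL1 lower by limma, and none was called after sip53. Of 12 luminal markers 11 were named and 8 were above it, with ESR1, PGR and FOXA1 below. VWF and DCN among endothelial and fibroblast markers were also below it. Of 8 blood cell markers 3 were named (CD14, CD68 and LYZ). Their mean log2 value was 9.06 and 9.11 with siNC, 9.66 and 9.65 with siATM, and 8.78 and 8.67 with sip53. This mean moved with the siATM differences, but the genes moved unevenly. Their differences from siNC ran from 0.16 to 1.19 after siATM and from −0.78 to −0.14 after sip53. By limma, CD14 and LYZ were higher after siATM, and CD14 was lower after sip53. The mean over 11 luminal markers was 8.04 with both siNC arrays, 8.18 and 8.25 with siATM, and 8.09 and 8.08 with sip53. Over the 8 tested, siATM differences from siNC ran from −0.05 to 1.14, with AGR2, GATA3 and KRT19 higher by limma. AGR2 and GATA3 were also higher after sip53. Of 8 endothelial and fibroblast markers 5 were named, with a mean between 5.68 and 5.86 on all arrays. The 3 of them tested moved in different directions after siATM by limma, with LUM at 0.68 (adjusted p = 0.00164) and RGS5 at 0.25 (adjusted p = 0.0247) higher and PECAM1 at −0.47 (adjusted p = 0.0113) lower, and LUM was also higher after sip53 (0.49, adjusted p = 0.012). The part of these markers in the results above was not tested.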

How the data were processed

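Total RNA from 6 MDA-MB-231 samples was hybridised to Affymetrix Human Gene 2.0 ST arrays, per the labels. The deposited values, 1 for each probe set on each array, are log2 values as judged from their range. Background correction, summarisation and normalization by the authors are not given in the sources used here. Scaled log2 values hide changes in total RNA, and precision is limited by having 6 arrays. Of 53617 probe sets, 16098 had 1 gene symbol in the platform annotation, none had several, and 37519 were unnamed here. A gene was represented by its brightest probe set on average. Genes with a mean of at least 5.96, the median of probe-set means, were tested (10640 of 14884).

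Group means were fitted to all 6 arrays with limma 3.58.1 (R 4.3.3), with variances moderated by eBayes (3 residual and 7.29 total degrees of freedom). Tests were two-sided, and p-values were adjusted by Benjamini-Hochberg over all genes tested in a contrast, with a threshold of 0.05. The procedure was tested on simulated arrays. The members and gene lists were chosen with earlier results of these data known. All members were named, with up to 4 called genes of the largest change per list and contrast, the tested FOXO factors, and the 3 nearest genes of 4 members. Alternatives were the filter, quantile normalization, centring, the mean of probe sets, a variance trend, a replicate block, fits of 2 groups and leaving out each array. Motifs were searched in RefSeq promoter windows.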

Additional observations from a re-analysis of the deposited data

How the results depend on the processing

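The alternatives were compared by counts of called genes (limma, adjusted p below 0.05), and for counts that moved by over 1.5 times the cause was not tested. Leaving out 1 array gave 1437 to 2226 calls over all genes for siATM against siNC (2708 with all arrays), 272 to 1242 for sip53 against siNC (1126) and 1842 to 2852 for siATM against sip53 (3219). In the same order of comparisons, the count over the 10 FOXO targets ran from 6 to 8, 0 to 3 and 5 to 7. It ran from 0 to 2, 0 to 1 and 1 to 3 for FOXO factors and regulators, from 2 to 4, 1 to 3 and 3 to 4 for insulin and PI3-kinase genes, and from 4 to 7, 1 to 6 and 4 to 10 for the wider FOXO targets. For the relatives it ran from 4 to 8, 1 to 2 and 7 to 9, and for the FOXM1 list from 11 to 12, 0 to 2 and 8 to 9. With no filter on dim genes, siATM against siNC gave 1 FOXO factor or regulator, 2 insulin genes and 4 relatives. In that setting sip53 gave 481 genes in all, 0 of the 10 FOXO targets, 0 FOXO factors or regulators (3 at an unadjusted p below 0.05), and 1 gene in each other list, and siATM against sip53 gave 6 wider targets and 7 relatives. The filter at the 70th percentile gave 12 wider targets for siATM. For sip53 it gave 4 FOXO targets, 5 insulin genes, 7 wider targets and 4 of the FOXM1 list. At that limit (7.22) SESN3 and PIK3IP1 were too dim to be tested. A variance trend with robust moderation gave 12 wider targets for siATM, and for sip53 1742 genes in all, 5 of the 10 targets, 2 FOXO factors or regulators, 5 insulin genes, 8 wider targets and 4 of the FOXM1 list. Centred arrays and the mean of probe sets each gave 1 relative for sip53, and the fit of 2 groups gave 2 FOXO factors or regulators for siATM. Between groups, deviations of arrays with the same replicate number had correlations of 0.04, 0.03 and 0.12. These values cannot show whether same-numbered arrays were cultured or handled together. With the number as a replicate block, 2696, 1001 and 3218 genes were called, with 8, 2 and 8 of the 10 targets and, for sip53, 0 FOXO factors or regulators (2 at an unadjusted p below 0.05). Of 2370 recomputed differences of named genes, 2114 kept direction and side of the threshold, 200 lost the call, 35 gained it and 21 reversed, all of them small and not called. For sip53, the reversed values were −0.012 and −0.031 for KLF2, −0.0028 and −0.028 for KIF20A (quantile normalization and centring) and −0.015 for ARRDC4 (centring). With 1 array left out, the sip53 differences ran from −0.044 to 0.022 for INSR, −0.077 to 0.058 for MXI1, −0.029 to 0.23 for FOXO1, −0.0065 to 0.09 for FOXO3, −0.0072 to 0.012 for KLF2, −0.041 to 0.077 for ARRDC4, −0.020 to 0.030 for KIF20A, −0.058 to 0.015 for CPA4 and −0.0099 to 0.34 for FMO4. The siATM difference of SESN1 ran from −0.029 to 0.19, and that of ROMO1 against sip53 from −0.067 to 0.30. With 2 arrays a group, a group left with 1 array is assumed to vary like the others.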
